A study of Mus musculus with 20 samples.

Results

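The genes described here encode the proteins that relay a signal from Toll-like receptors at the membrane to the kinases of the cytoplasm. There are 10 of them, chosen by symbol: Ly96, Myd88, Tirap, Ticam1, Ticam2, Irak4, Irak1, Irak2, Traf6 and Tbk1. They were 10 of the 55487 genes in the count table and 10 of the 12799 genes that passed the filter on low counts, so none was lost before testing. RNA was sequenced from BV-2 cells, an immortalised microglial line derived from brain cultures of C57BL/6 mice, labelled as wild type. The 20 cultures formed 4 groups of 5, namely young untreated, young with LPS, aged untreated and aged with LPS, where LPS is bacterial lipopolysaccharide given at 100 ng/ml for 6 h. Young cells were at low passage, aged cells were the same line after long-term cultivation, and all groups therefore stand for a single cell line in culture, not for microglia of young or old animals. The study asked how ageing in culture alters the resting transcriptome of microglia and its response to an inflammatory stimulus.

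LPS is recognised at the cell surface by the receptor TLR4 bound to the small secreted protein MD-2, the product of Ly96. At the plasma membrane TLR4 recruits TIRAP (also called MAL) and MyD88, which assemble the kinases IRAK4, IRAK1 and IRAK2 and pass the signal to the ubiquitin ligase TRAF6, leading to NF-kappaB and the early cytokines. From endosomes TLR4 signals through the bridging adaptor TRAM, encoded by Ticam2, and the adaptor TRIF, encoded by Ticam1, which activate the kinase TBK1, leading to the phosphorylation of IRF3 and to type I interferon; microglia, the resident macrophages of the brain, use both branches.

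Library totals ranged from 11371508 to 16829292 counts, and the members were covered by 41 to 127 counts per library for Ly96, the least covered, and by 1406 to 3120 for Myd88, the most covered. CPM is a count scaled to the size of its library. Of 15 markers of microglia and macrophages, 11 had at least 1 CPM in every library, among them Csf1r, Trem2 and Tmem119. Cx3cr1 and P2ry12 did not reach 1 CPM in every library, and Sall1 and Siglech were at the floor of 3 counts in all libraries. Markers of neurons, fibroblasts, astrocytes and lymphocytes were near 0, and of the oligodendrocyte and endothelial lists only Cnp and Flt1 reached 1 CPM in every library, with the more specific Mog, Mag, Cldn5, Cdh5 and Tek at the floor. The third aged culture with LPS stood apart from the other 4 of its group in interferon-related genes of the pathway, with Irf7 at 158 CPM against 67.1 to 87.5 and Tlr3 at 11.9 CPM against 3.05 to 3.62. For that reason counts of members are given below also without batch 3. In libraries made from whole cultures, fewer responding cells and less RNA per responding cell cannot be told apart.

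TPM divides counts by the summed length of a gene's annotated exons, called transcript length here, and scales each library to the same sum. By this measure Myd88 was the most abundant member in every group. Its level was 142 ± 5.7 TPM in young untreated cultures, 259 ± 28 in young cultures with LPS, 146 ± 9.0 in aged untreated cultures and 216 ± 15 in aged cultures with LPS (SD, n = 5 each). Irak1 came next in all 4 groups, followed by Tbk1. In young untreated cultures Traf6, Tirap, Ticam1, Irak4, Irak2 and Ly96 then formed a run from 29.1 to 16.8 TPM in which each gene overlapped its neighbour in the order, so that their ranks are not separated. With LPS, Ticam1 and Irak2 left this run and reached 71.8 and 69.0 TPM in young cultures, a level at which Irak1, Tbk1, Ticam1 and Irak2 each overlapped the next. Ticam2 was the least abundant member throughout, from 7.77 ± 0.57 TPM in young untreated cultures to 3.23 ± 0.61 TPM in young cultures with LPS, without overlap with the gene above it in any group. This rank depends on the length used, since by CPM Ly96 was below Ticam2 in young untreated cultures, at 4.72 against 12.4.

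**Figure D1:**
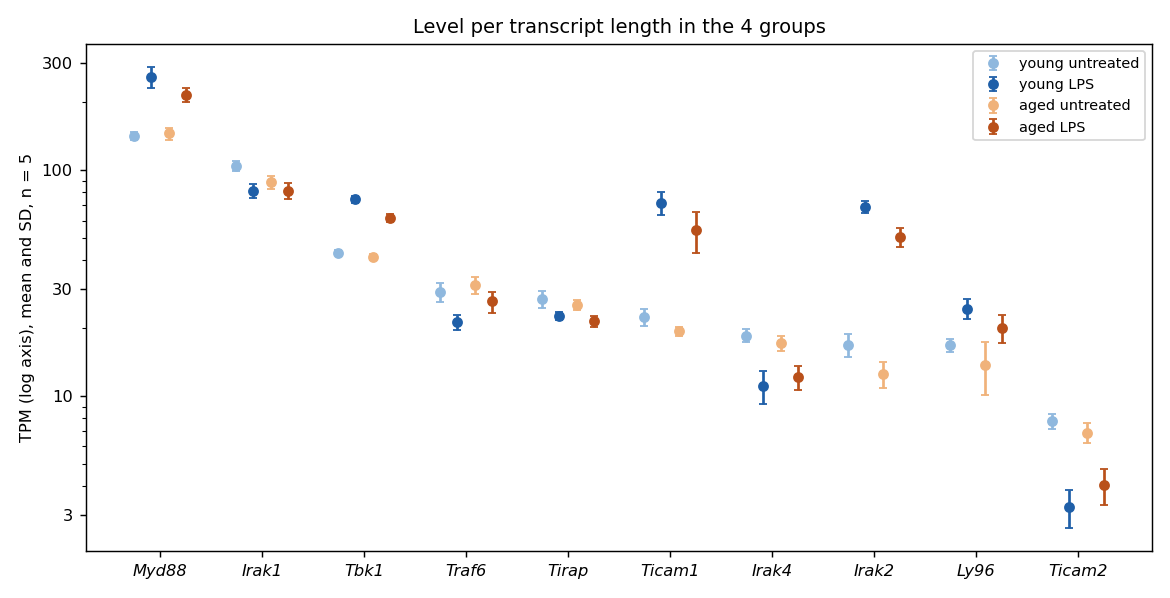
Level of each gene per transcript length in TPM on a log axis, as mean and SD of 5 cultures per group, with genes ordered by their level in young untreated cultures. Myd88 lies highest and Ticam2 lowest in all 4 groups, and with LPS Ticam1 and Irak2 rise to the level of Tbk1.

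Without a stimulus, 2 relay genes passed the test between aged and young cultures. Both were kinases of the same family and both were lower in aged cells: Irak2, the kinase that sustains late signalling, and Irak1, the kinase that carries the signal to TRAF6. These were 2 of 10 members, 0 of which were higher, where 11.5% of all 12799 genes tested passed the test, 3.71% as higher and 7.81% as lower. The median log2 fold change of the members was -0.17, that of all genes tested -0.01.

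Irak2 stood at 23.6, 19.4, 22.5, 19.3 and 17.9 CPM in the young untreated cultures of batches 1 to 5. In the aged untreated cultures it stood at 14.0, 12.3, 17.5, 14.4 and 16.6 CPM. The lowest young culture was above the highest aged culture, by a small margin, so that the groups did not overlap, as in 10.4% of all genes. The difference was -0.46 ± 0.10 on the log2 scale (SE), 1.37-fold lower in aged cells, with an edgeR adjusted p of 0.00395. Irak1 showed the same arrangement on a higher level, between 128 and 143 CPM in young and between 105 and 123 CPM in aged untreated cultures, again without overlap. It differed by -0.27 ± 0.06 (adjusted p = 0.00326) and was lower in the aged culture of 5 of 5 batches. Both calls were made in every one of 12 alternative analyses. Of the remaining members, Myd88 had the smallest difference, 0.01 (95% interval -0.13 to 0.16), with 91.8 to 107 CPM in aged and 96.3 to 107 CPM in young cultures. For Ly96, the difference of -0.31 (-0.62 to -0.00) did not pass after adjustment (adjusted p = 0.191), and its aged cultures spread from 2.73 to 5.17 CPM around the young range of 4.46 to 5.08 CPM. Ticam1 (-0.23, adjusted p = 0.227) and Ticam2 (-0.19, adjusted p = 0.313) were lower in the aged culture of 5 of 5 batches without passing.

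**Figure D2:**
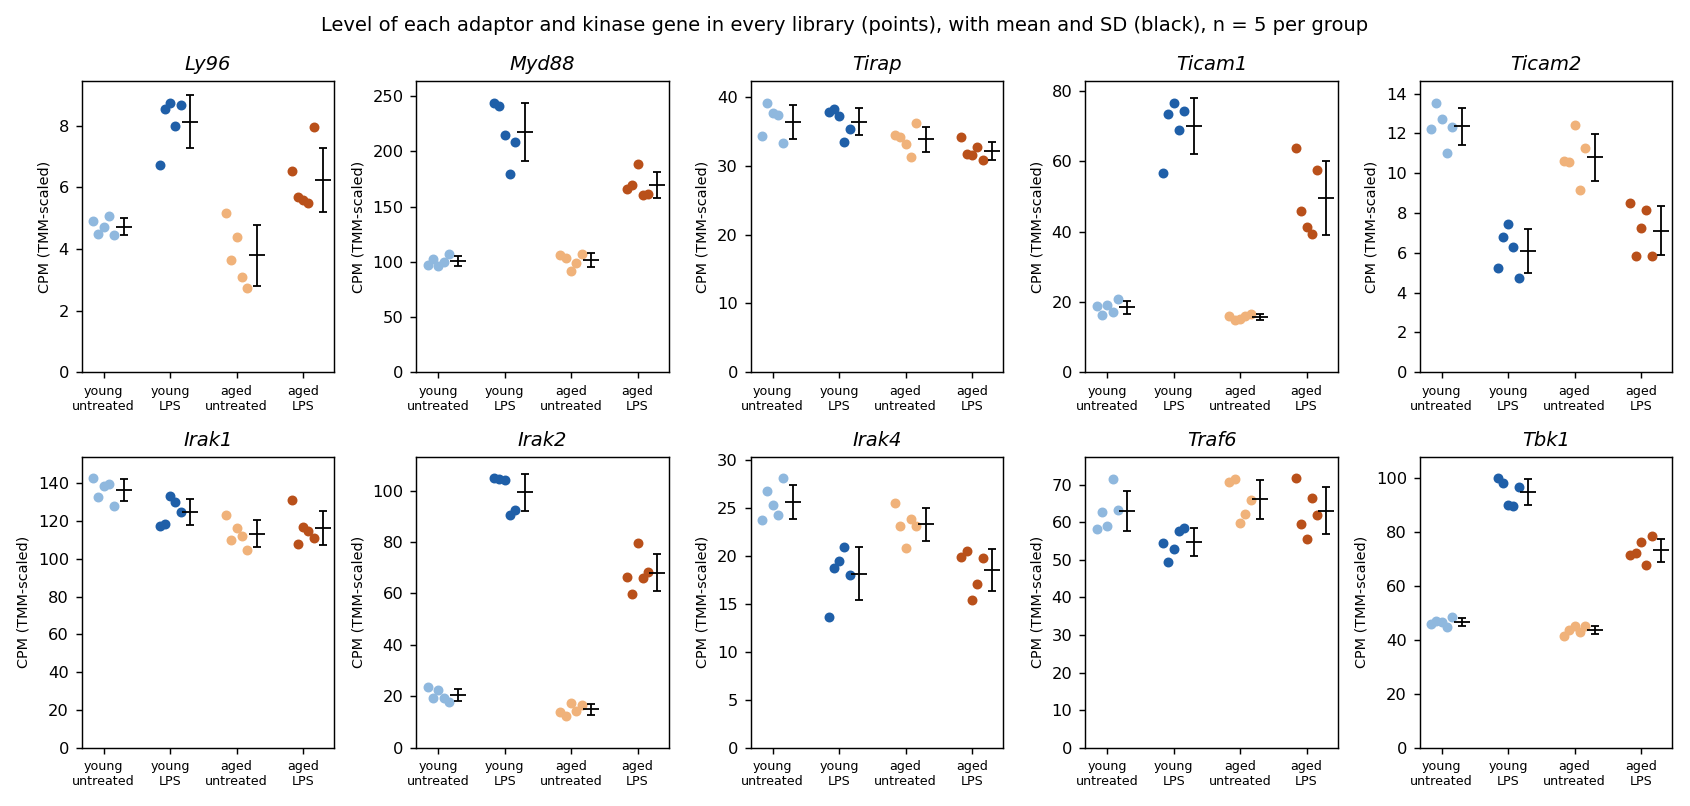
CPM of the 10 genes in each of the 20 cultures, scaled by TMM factors, with points for cultures (batches 1 to 5 from left to right), and the mean and SD of each group in black; every axis starts at 0. Irak2, Ticam1, Myd88 and Tbk1 rise with LPS in both ages and lie lower in aged than in young cultures with LPS, whereas Ticam2 and Irak4 fall.

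With LPS, members changed in both directions, and the share that changed was not far from that of all genes. In young cultures 5 of 10 members rose (Irak2, Ticam1, Myd88, Tbk1 and Ly96) and 3 fell (Ticam2, Irak4 and Traf6), 8 in all; among all genes tested 64.6% were called, 31.2% as higher and 33.5% as lower. In aged cultures the same 5 rose, while Ticam2 and Irak4 fell, 7 of 10 against 54.4% of all genes, 27.5% as higher and 26.9% as lower. The median member was higher by 0.39 in young and by 0.38 in aged cultures on the log2 scale, against -0.01 and 0.00 for all genes tested. Without batch 3, the counts were 9 in young and 7 in aged cultures. The share of all genes whose treated and untreated cultures do not overlap was not computed. Where members are said below to be apart with LPS, this describes their values only.

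Among the kinases, Irak2 showed the largest change of all members. With LPS it stood at 105, 105, 104, 90.6 and 92.6 CPM in young cultures and at 66.5, 60.0, 79.5, 66.2 and 68.3 CPM in aged cultures. Every culture with LPS was far above every untreated culture of its age. The rise was 2.27 ± 0.09 on the log2 scale in young cells, 4.83-fold (adjusted p = 1.68e-15), and 2.18 ± 0.09 in aged cells, 4.55-fold (adjusted p = 9.06e-15). IRAK4, the kinase that starts the cascade by phosphorylating the other IRAKs, went the other way at the transcript level. Irak4 was at 23.7 to 28.1 CPM in young untreated cultures and at 13.6 to 21.0 CPM in young cultures with LPS. It fell by 0.49 ± 0.10 on the log2 scale in young cells (adjusted p = 0.00011), and by 0.33 ± 0.10 in aged cells (adjusted p = 0.00553), with no overlap between treated and untreated cultures in either age. In aged cells the margin was small, with the highest treated culture at 20.5 CPM and the lowest untreated one at 20.8 CPM. Irak4 shares 395 exonic bases with Twf1 on the opposite strand, and Twf1 changed upwards with LPS, by 0.18 in young and by 0.22 in aged cultures. Irak1 was lower in the treated culture of 5 of 5 young batches, by 0.13 ± 0.06 on average, which missed the threshold (adjusted p = 0.0529) and passed it with the batch as a block (adjusted p = 0.022). In aged cultures its difference was 0.04 (-0.08 to 0.15).

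Of the adaptors, Ticam1 rose most. The TRIF transcript was at 18.9, 16.3, 19.1, 17.1 and 20.8 CPM in young untreated cultures. With LPS it reached 56.6, 73.4, 76.8, 69.0 and 74.3 CPM in young cultures. All treated cultures were well above the untreated ones, and the culture of batch 1 was the lowest of the treated. Aged cultures went from between 14.7 and 16.6 CPM to 63.7, 45.9, 41.2, 39.4 and 57.4 CPM, a wider spread in which batches 1 and 5 were high and reached into the young range. The rise was 3.81-fold in young cells (1.93 ± 0.11, adjusted p = 1.20e-12) and 3.17-fold in aged cells (1.66 ± 0.12, adjusted p = 3.83e-11). Ticam2, whose product connects TRIF to TLR4, fell while Ticam1 rose. In young cultures it went from 12.2, 13.6, 12.7, 11.0 and 12.3 CPM to 5.24, 6.80, 7.45, 6.27 and 4.72 CPM. In aged cultures it went from 10.6, 10.6, 12.4, 9.17 and 11.3 CPM to 8.50, 5.86, 7.24, 8.13 and 5.86 CPM. Treated and untreated cultures were apart in both ages. The fall was 2.02-fold in young (-1.01 ± 0.13, adjusted p = 2.77e-07) and 1.52-fold in aged cells (-0.60 ± 0.12, adjusted p = 0.000287). Ticam2 shares 838 exonic bases on its own strand with Tmed7, which held 2060 counts per library on average against 135 for Ticam2, and how reads in such a stretch were counted is not given in the sources used here. Tmed7 itself moved upwards, by 0.18 in young (adjusted p = 0.00221) and by 0.11 in aged cultures (adjusted p = 0.0567).

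Myd88, the adaptor of nearly all Toll-like receptors, rose in both ages and further in young cells. It was at 97.0, 102, 96.3, 100.0 and 107 CPM in young untreated cultures and at 244, 241, 215, 179.5 and 209 CPM in young cultures with LPS. Aged cultures with LPS reached 166, 169.7, 189, 161 and 162 CPM. All cultures with LPS were above all untreated ones, and the rise was 2.17-fold in young (1.12 ± 0.07, adjusted p = 3.07e-12) and 1.67-fold in aged cells (0.74 ± 0.07, adjusted p = 5.87e-09). Myd88 overlaps 290 exonic bases of Acaa1a on the opposite strand, a gene at lower level that changed by 0.30 in young and 0.28 in aged cultures with LPS. Between aged and young cultures Acaa1a differed by -0.45 untreated and by -0.47 with LPS, the latter in the direction of the Myd88 difference given below. Tirap, the sorting adaptor that brings MyD88 to TLR4, stayed between 30.8 and 39.2 CPM in all 20 cultures. Its difference with LPS was -0.00 (-0.12 to 0.12) in young and -0.07 (-0.19 to 0.05) in aged cultures. Tirap shares 39 exonic bases with Srpr, a gene at higher level on the opposite strand. With LPS Srpr rose by 0.46 in young and by 0.34 in aged cultures. Between aged and young cultures with LPS it differed by -0.25, in the direction of the Tirap difference given below.

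At the ends of the relay, the co-receptor Ly96 and the kinase Tbk1 both rose. Ly96 went from 4.90, 4.47, 4.71, 5.08 and 4.46 CPM to 6.72, 8.54, 8.76, 7.98 and 8.70 CPM in young cultures (0.79 ± 0.14, adjusted p = 4.10e-05). In aged cultures it went from 5.17, 3.63, 4.40, 3.08 and 2.73 CPM to 6.53, 5.69, 5.59, 5.50 and 7.96 CPM (0.72 ± 0.15, adjusted p = 0.000259). Neither age showed overlap, although the lowest treated and highest untreated aged cultures were close. Tbk1 was the most even of the 5 genes that rose. Its 5 young cultures went from between 44.7 and 48.5 CPM to 99.9, 98.2, 89.9, 89.7 and 96.7 CPM. Its aged cultures went from between 41.3 and 45.3 CPM to 71.4, 72.2, 76.1, 67.6 and 78.3 CPM. These ranges are narrow and far apart, a rise of 2.04-fold in young (1.03 ± 0.05, adjusted p = 2.26e-14) and 1.67-fold in aged cells (0.74 ± 0.05, adjusted p = 1.26e-11). Traf6, the ligase on which the IRAK complex converges, differed little. It was at 58.3 to 71.5 CPM in untreated and 49.4 to 58.6 CPM in treated young cultures, overlapping ranges with a difference of -0.20 ± 0.07 (adjusted p = 0.0179) that was lost without batch 2 or batch 4 (-0.17 and -0.18). In aged cultures it differed by -0.07 (-0.22 to 0.08).

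**Figure D3:**
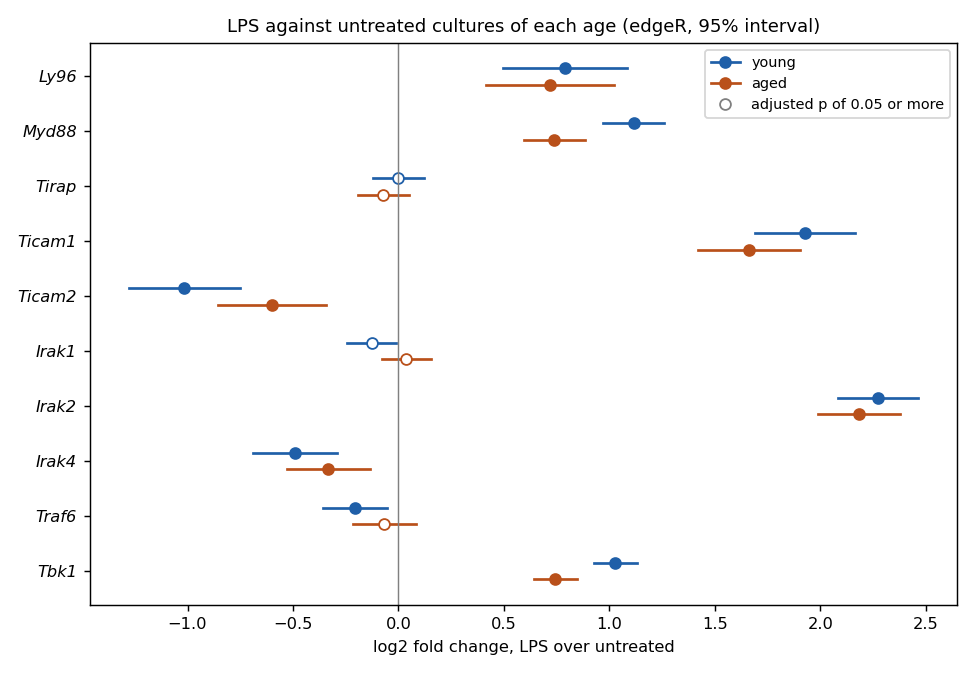
Log2 fold change of LPS over untreated cultures for each gene in young and aged cells, from edgeR, with 95% intervals; open points have an adjusted p of 0.05 or more. Irak2 and Ticam1 lie furthest to the right, at 2.27 and 1.93 in young cells, and Ticam2 furthest to the left, at -1.01, and in Myd88 and Tbk1 the intervals of both ages do not meet.

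The size and the call of the weakly changed members depended on the scaling, as did the direction for Irak1 in aged cultures and, near 0, for Tirap in young cultures (0.0154 with DESeq2 size factors). TMM scaling, which assumes that most genes keep their level, placed the median gene near 0; with library sizes alone the median of all genes shifted by -0.22 in young and by -0.16 in aged cultures, and 27.3% and 28.4% of the called genes were higher instead of 48.2% and 50.6%. Under that scaling all 10 members passed in young cultures, with Tirap at -0.22 and Irak1 at -0.35, and 9 in aged cultures, where Irak1 turned to -0.12 without passing and Traf6 stood at -0.23. The 5 genes that rose still rose and Ticam2 and Irak4 still fell.

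Promoter sequence is shown for the 4 members with a RefSeq entry that rose with LPS, since these moved together. For each, the 120 bases from 144 to 25 before the RefSeq start are given 5′ to 3′ on the strand of the gene, in GRCm38.p6: Irak2 on the plus strand (chr6:113638323-113638442), and on the minus strand Ticam1 (chr17:56276792-56276911), Myd88 (chr9:119340043-119340162) and Tbk1 (chr10:121586819-121586938). Capitals mark matches on either strand to the IRF element, which is GAAA, any 2 bases and GAAA again, and to the GC box GGGCGG.
Irak2: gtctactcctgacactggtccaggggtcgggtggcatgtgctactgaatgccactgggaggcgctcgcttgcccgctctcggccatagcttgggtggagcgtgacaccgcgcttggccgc
Ticam1: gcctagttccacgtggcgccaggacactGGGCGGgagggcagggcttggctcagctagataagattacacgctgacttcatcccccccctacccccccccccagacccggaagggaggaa
Myd88: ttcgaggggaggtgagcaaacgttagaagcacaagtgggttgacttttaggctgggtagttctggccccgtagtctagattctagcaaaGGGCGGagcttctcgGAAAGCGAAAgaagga
Tbk1: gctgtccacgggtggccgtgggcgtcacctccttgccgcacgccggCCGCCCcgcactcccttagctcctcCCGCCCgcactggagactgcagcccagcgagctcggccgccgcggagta
In the GENCODE annotation Myd88 begins further upstream, at chr9:119341411. The Myd88 stretch therefore lies inside that gene and before the RefSeq start only. It holds an IRF element whose first base lies 40 bases before the RefSeq start. This pattern was present in 3.44% of 32851 promoter windows of 300 bases. The Myd88 match was the only IRF element in the full windows of the 8 members that have a RefSeq entry. None of these windows held the 10-letter NF-kappaB consensus, found in 5.80% of all windows, or the AP-1 element TGANTCA, found in 7.81%. All 8 genes held a GC box in at least 1 window, as did 38.2% of all genes with a window. The shares given for all windows and genes cover 27025 genes, against 12799 tested here. They were not computed for the tested genes alone, so the members are set beside an unlike set. All motifs here are matches of letters in a short window near a start and no measurement of binding.

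Among the cultures treated with LPS, aged ones held less of most relay transcripts than young ones. Lower in aged cells were 6 of 10 members (Irak2, Ticam1, Ly96, Tbk1, Myd88 and Tirap), and Traf6 was higher, 7 members in all against 29.0% of all genes tested, 14.0% as higher and 15.0% as lower. The untreated and the treated comparisons of age use different cultures, while each shares its cultures with the comparisons of LPS. The median difference of the members was -0.27 on the log2 scale, and that of all genes 0.01. With library sizes alone the median gene shifted by 0.08, the share of called genes that were higher went from 48.3% to 70.1%, and 5 members passed. Without batch 3, 5 members passed as well, and without batch 2 there were 4.

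Irak2 and Tbk1 were the members whose aged and young cultures with LPS did not overlap, as was the case for 14.8% of all genes. The lowest young culture of Irak2, at 90.6 CPM, stood above the highest aged culture, at 79.5 CPM, and for Tbk1 these values were 89.7 and 78.3 CPM. The differences were -0.54 ± 0.09 for Irak2 (adjusted p = 4.55e-05) and -0.37 ± 0.05 for Tbk1 (adjusted p = 4.65e-06). Myd88 differed by -0.36 ± 0.07 (adjusted p = 0.000363) and was lower in the aged culture of 5 of 5 batches. Ticam1 differed by -0.50 ± 0.11 (adjusted p = 0.00115) and was lower in 4 of 5 batches, since the aged culture of batch 1 was above the young one of that batch. These 4 calls were made in all 12 alternatives. The other calls were near the threshold: Ly96 at -0.38 ± 0.14 (adjusted p = 0.0429), Tirap at -0.18 ± 0.06 (adjusted p = 0.0252) and Traf6 at 0.21 ± 0.07 (adjusted p = 0.038). Each of these was lost without batch 2, where the values were -0.34, -0.15 and 0.19, and in 4 to 6 further alternatives. For the members that fell with LPS, the differences between ages were 0.22 (-0.06 to 0.50) in Ticam2 and 0.02 (-0.18 to 0.23) in Irak4.

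**Figure D4:**
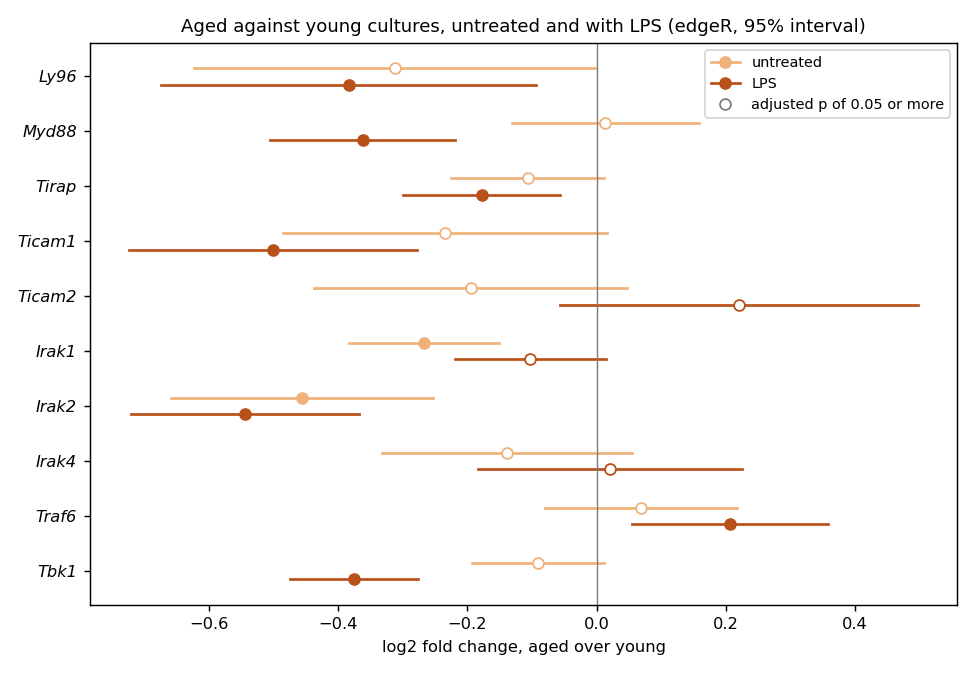
Log2 fold change of aged over young cultures for each gene, untreated and with LPS, from edgeR, with 95% intervals; open points have an adjusted p of 0.05 or more. Irak2 lies below 0 in both states, at -0.46 and -0.54, whereas Myd88 lies at 0.01 without and at -0.36 with LPS.

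Whether the response itself differed between the ages was tested by the interaction term, in which 2 members passed, both with a smaller rise in aged cells, where 6.39% of all genes passed and 2.27% did so as lower. For Myd88 the rise in aged cells was smaller by 0.38 ± 0.10 on the log2 scale (value -0.38, adjusted p = 0.023), with a gain of 67.9 CPM against 117 CPM in young cells. For Tbk1 the value was -0.28 ± 0.07 (adjusted p = 0.0136), with a gain of 29.5 CPM against 48.4 CPM. The rise was smaller in the aged culture of 5 of 5 batches for both genes. The calls did not hold in every alternative: Myd88 lost its call without batch 1, 2 or 5 (-0.29, -0.34 and -0.38), and Tbk1 without batch 1 or 2 (-0.27 in both) and with no filter on low counts (-0.28). Both passed without batch 3.

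Irak2 was lower in aged cells in both states, and its interaction was -0.09 (-0.36 to 0.18, adjusted p = 0.797), an interval that also holds the Tbk1 value. Whether genes differ from each other in their interaction was not tested. The interval of Ticam1 was wider, -0.27 (-0.60 to 0.07), and covers both no difference and one as large as that of Myd88. Ticam2 fell less in aged cells by 0.42 (0.05 to 0.78), which did not pass after adjustment (adjusted p = 0.19). Irak1, at 0.16 (-0.00 to 0.33), was higher in 5 of 5 batches without passing (adjusted p = 0.259).

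Ratios within a library do not depend on how libraries are scaled, and 2 of them were compared across 4 contrasts by exact two-sided permutation tests of 5 against 5 cultures, with Benjamini-Hochberg adjustment over the 8 tests. The smallest p such a test allows is 0.0079. The ratio of Irak2 to Irak1, late to early IRAK, was 0.139 to 0.166 in young untreated and 0.112 to 0.159 in aged untreated cultures, and 0.697 to 0.895 and 0.508 to 0.679 with LPS. It rose by 2.41 on the log2 scale in young and by 2.16 in aged cells (exact permutation, adjusted p = 0.0127 each). With LPS it was lower in aged than in young cultures by 0.44 (value -0.44, exact permutation, adjusted p = 0.0127), without overlap, and untreated cultures differed by -0.19 (exact permutation, adjusted p = 0.172). Expressed per transcript length, Irak2 made up 12.0% ± 1.0 of the summed Irak1, Irak2 and Irak4 level in young untreated cultures and 42.8% ± 2.9 with LPS (SD, n = 5). In aged cultures it made up 10.6% ± 1.5 and 35.2% ± 2.7. The share of Irak4 went from 13.2% to 6.87% in young and from 14.5% to 8.47% in aged cultures.

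The ratio of Myd88 to Ticam1 sets the adaptors of the 2 branches side by side. In young cultures its log2 value was 2.36, 2.65, 2.34, 2.55 and 2.36 without and 2.11, 1.71, 1.49, 1.38 and 1.49 with LPS. In aged cultures it was 2.74, 2.81, 2.61, 2.64 and 2.69 without and 1.38, 1.88, 2.2, 2.03 and 1.49 with LPS. Thus Ticam1 gained on Myd88 in every batch of both ages. The ratio fell by 0.82 in young and by 0.90 in aged cells (exact permutation, adjusted p = 0.0127 each). Untreated aged cultures were higher by 0.24 (exact permutation, adjusted p = 0.0317), a call that was lost without batch 1, 3, 4 or 5, where the values were 0.210, 0.237, 0.283 and 0.224. With LPS the ages differed by 0.16 (exact permutation, adjusted p = 0.444). Paired by batch, no difference of either ratio passed, since 5 pairs allow no exact p below 0.0625.

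**Figure D5:**
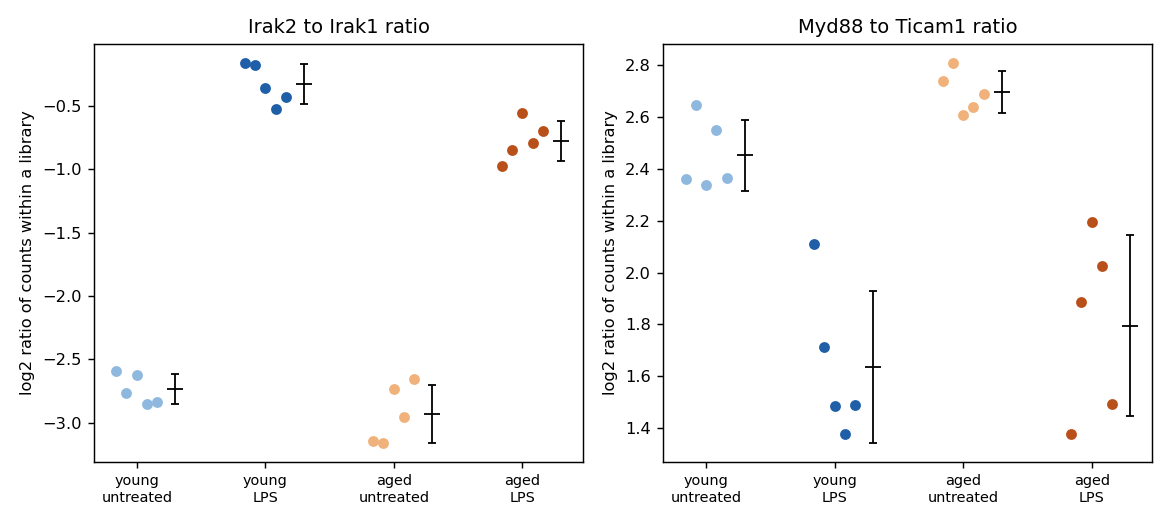
Log2 ratio of Irak2 to Irak1 and of Myd88 to Ticam1 counts within each of the 20 libraries (points, batches 1 to 5 from left to right), with the mean and SD of each group of 5; the axes do not start at 0. The Irak2 to Irak1 ratio rises by 2.41 in young and 2.16 in aged cells, and the Myd88 to Ticam1 ratio falls by 0.82 and 0.90.

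The genes whose 4 group means were most like those of a member were looked up for the 3 members with the largest range of group means, by the root mean squared difference of centred log2 CPM over the 4 groups. Closest to Irak2 were Gsap, Tnfaip2 and Tlr2, the receptor for bacterial lipoproteins, with differences of 0.037, 0.038 and 0.047. Tlr2 rose by 2.28 in young and 2.13 in aged cells and Irak2 by 2.27 and 2.18, a closeness that follows from the way the genes were picked. Closest to Ticam1 were Cpeb4, Pik3ap1, an adaptor of phosphoinositide 3-kinase, and Gm6548, at 0.044 to 0.051. Closest to Tbk1 were Rit1, Acot9 and Pik3r6, at 0.012 to 0.029. These distances rest on 4 means of 5 libraries each and describe likeness of pattern.

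The pathway around the relay was followed in 6 lists with 69 genes, of which 62 were tested. Tlr5, Tlr11, Tlr12, Lbp, Peli2, Peli3 and Sarm1 did not pass the filter on low counts. In untreated cultures 16 of the 62 differed between ages, 2 higher and 14 lower in aged cells, against 11.5% of all genes. With LPS, 53 changed in young cultures (41 higher, 12 lower; all genes 64.6%) and 45 in aged cultures (32 higher, 13 lower; all genes 54.4%). With library sizes alone the young split was 28 higher and 19 lower, and the aged one 26 and 19. Between aged and young cultures with LPS 38 differed, of which 36 were lower in aged cells, against 29.0% of all genes. Their response differed in 7 of 62, against 6.39%. The counts of single lists given next are to be read against the same shares, of which 31.2% were higher and 33.5% lower with LPS in young cells.

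Upstream, all 10 tested receptors and co-receptors changed with LPS in young cells, 7 up and 3 down. Tlr4 itself, the receptor for LPS, fell from 69.4 ± 4.6 to 33.8 ± 3.5 CPM (-1.03 ± 0.10, adjusted p = 2.37e-09), while its co-receptor Ly96 rose. Tlr8, below the level set for naming genes and named after its values were seen, fell further (-4.30). Tlr3, the receptor for double-stranded RNA that signals through TRIF alone, rose from 0.883 ± 0.211 to 16.3 ± 4.2 CPM (4.18 ± 0.39). In untreated aged cells 3 of the 10 were lower, namely Tlr8 (-2.55), Tlr13 (-0.52), likewise named after its values were seen, and Tlr1, the partner of TLR2, at 20.5 ± 2.0 against 35.3 ± 1.9 CPM (-0.78 ± 0.09, adjusted p = 4.92e-06). Among genes of receptor folding and trafficking, 3 rose and 3 fell of 8 in young cells with LPS. Unc93b1, which carries receptors to endosomes, rose by 0.37 ± 0.09 and the chaperone gene Cnpy4 fell by 0.84 ± 0.08 on the log2 scale. Ly86, encoding the MD-1 protein related to MD-2, was lower in untreated aged cells (-0.49 ± 0.09, adjusted p = 0.0011), where Ly96 did not pass.

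Downstream of TRAF6, 9 of 12 genes of the TAK1 and IKK complexes rose with LPS in young cells and Tab1, a subunit of the TAK1 complex, fell (-0.40 ± 0.09). Nfkbia, the inhibitor of NF-kappaB that is itself an NF-kappaB target, rose from 48.4 ± 6.5 to 324 ± 49 CPM (2.74 ± 0.12). Map3k8, a kinase released upon degradation of p105, was lower in untreated aged cells (-0.51 ± 0.16, adjusted p = 0.0398). On the TBK1 arm 7 of 9 genes rose in young cells with LPS and 6 of 9 did so in aged cells. Irf7, an interferon regulatory factor, went from 2.47 ± 1.39 to 206 ± 51 CPM in young cultures, while aged cultures went from 0.669 ± 0.243 to 92.9 ± 37.2 CPM, with the high aged culture of batch 3 included. In untreated cultures Irf7 was lower in aged cells (-1.89 ± 0.56, edgeR adjusted p = 0.0308). Untreated aged cultures held 0.342 to 0.999 CPM of it, near the floor of 3 counts. On the log2 scale Irf7 rose by 6.39 in young and by 7.13 in aged cells, the latter from that low level. Its interaction of 0.74 (-0.53 to 2.02) did not pass. Ripk1, a kinase that binds TRIF, fell by 0.43 ± 0.06 on the log2 scale in young cells.

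The interaction passed for 3 of 9 genes of the TBK1 arm, all with a smaller response in aged cells, as for Tbk1. By direction alone, 5 of the 9 interaction values were above 0 and 4 below, with a median of 0.02. The 3 that passed were the TBK1-binding scaffolds Tank (-0.38) and Azi2 (-0.40) and Irf5 (-0.45 ± 0.12, adjusted p = 0.0288), a transcription factor placed in this list here. Tank and Azi2 are named after their values were seen. Irf5 went from 128 ± 12 to 179 ± 25 CPM in young cells, whereas aged cells had 115 ± 8 CPM without and 117 ± 12 CPM with LPS. Among ligases and conjugating enzymes the response of 3 of 9 was smaller, those of Peli1, Rnf31 (-0.41) and Ube2d3 (-0.21), the latter pair named after their values were seen. Peli1, a ligase of IRAK proteins, reached 181.6 ± 25 CPM in young cultures with LPS and 96.4 ± 7.1 CPM in aged ones (interaction -0.75 ± 0.11, adjusted p = 0.000224). With the batch as a block, the number of pathway genes with a different response was 11 instead of 7, and without batch 2 it was 1.

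Of the 14 inhibitors of the pathway tested, 9 rose and 3 fell in young cells with LPS. Tnfaip3, the deubiquitinase A20 that acts on TRAF6, rose 16.5-fold, from 10.0 ± 0.9 to 166 ± 25 CPM (4.05 ± 0.11), and was lower in untreated aged cells at 6.50 ± 0.96 CPM (-0.62 ± 0.12, adjusted p = 0.00221). Traf4 was higher in untreated aged cells (0.32 ± 0.08, adjusted p = 0.0102). Il1rl1, the receptor ST2, fell by 1.39 ± 0.14 on the log2 scale in young cells and by 0.59 in aged cells, and this difference in response passed (0.80 ± 0.20, adjusted p = 0.016). Below the level set for naming, Socs1 rose further (5.10) and Sigirr fell further (-3.89) with LPS in young cells, and Sigirr was higher in untreated aged cells (1.41); both are named after their values were seen. Trim8, a ligase listed with the conjugating enzymes, fell by 0.22 ± 0.07 in young cells.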

How the data were processed

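Poly(A) RNA of 20 BV-2 cultures was made into stranded Illumina libraries by the authors, who checked reads with FastQC 0.11.8, aligned them to GRCm38 with STAR 2.6.1d and deposited raw, whole-number counts per Ensembl gene made with featureCounts 1.5.1. Strand, multi-mapping and overlap settings are not given in the sources used here, so that members sharing exons with a neighbour are uncertain. Symbols, positions and lengths came from the GENCODE vM21 annotation of GRCm38, in which 55227 identifiers were found, and promoter windows, from 250 bases before to 50 after the start, from RefSeq (GRCm38.p6), with an entry for 8 of 10 members.

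Counts were tested with edgeR 4.0.16 (R 4.3.3), quasi-likelihood F-test, 1 group factor, all 20 libraries, TMM scaling, filterByExpr (12799 genes) and Benjamini-Hochberg adjustment over all genes, with a threshold of 0.05. CPM used TMM-scaled library sizes, log2 CPM a prior count of 2, and TPM the summed exon length. Alternatives were DESeq2 1.42.0, its size factors, library sizes alone, no filter, at least 10 counts in every library, the groups compared alone, the batch as a block, and each batch left out, 12 settings for a simple contrast. On simulated data for the untreated comparison of ages (12682 genes), edgeR recovered 196 of 200 genes changed by a fold of 2, with 12 false calls. The simulated counts had the same variation beyond counting error for every gene and no batch effect. They do not show how the test performs at smaller changes, such as the 1.37-fold of Irak2.

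Replicate numbers are batch numbers in the labels, with 1 culture of each group per batch, which pairs the cultures. Deviations from the group means correlated by 0.122 to 0.394 between untreated and treated cultures of the same batch and age, and by -0.214 to 0.275 between ages. No pair of replicates agreed within sampling noise (chi-square per degree of freedom 2.42 to 26.8 over 40 pairs). P-values measure the spread between these cultures. According to the study, aged cells were frozen after the long cultivation and aliquots of them were used. Whether the aged cultures stem from separate long cultivations is not stated, so the spread between such cultivations may not be covered. The floor of detection was 3 counts, 0.178 to 0.264 CPM, for counting error only. The members and lists were chosen with earlier results of these data known. The text names all members, and per pathway list the called genes with the largest rise and fall in 3 contrasts. Genes whose log2 CPM averaged below 1 were left out of that choice. Also named are the 3 genes most like each of 3 members, and neighbours sharing exons that passed the filter on low counts.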

Additional observations from a re-analysis of the deposited data

Results flagged for a closer look

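The response to LPS differed between the ages, by the interaction term of the edgeR fit, in 2 members of the relay and in 7 of 62 genes of the pathway. For Myd88 the difference of the log2 fold changes, aged minus young, was -0.38, from 1.12 in young and 0.74 in aged cells (adjusted p = 0.023), and for Tbk1 it was -0.28, from 1.03 and 0.74 (adjusted p = 0.0136). Of the pathway genes, Peli1 differed by -0.75, Irf5 by -0.45, Rnf31 by -0.41, Azi2 by -0.40, Tank by -0.38 and Ube2d3 by -0.21, whereas Il1rl1, which fell in both ages, differed by 0.80.

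No member had a culture far from the other 4 of its group. Of 116 groups of 5 tested by Dixon's criterion over members and named pathway genes, 6 passed, where chance gives about 5% of groups. In the aged culture with LPS of batch 3 there were 4 of these: Irf7 at 158 CPM (others 67.1 to 87.5), Tlr3 at 11.9 CPM (3.05 to 3.62), Unc93b1 at 294 CPM (230.1 to 248) and Map3k8 at 18.8 CPM (13.1 to 14.6). In the young cultures of batch 1, Irf5 was at 108 CPM without LPS (129.8 to 137) and Ripk1 at 67.3 CPM with LPS (78.3 to 82.7). In the aged culture with LPS of batch 3, Myd88 at 189 CPM and Irak2 at 79.5 CPM were also the highest of their group, within the spread allowed by the criterion.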

How the results depend on the processing

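Apart from leaving out a batch, 321 recomputed member fold changes kept their direction and their side of the threshold, 9 no longer passed, 6 newly passed and 4 reversed. The number of members with a different response was 2, 1 with no filter on low counts, and 0 to 2 with a batch left out. Members differing between ages with LPS numbered 4 to 7 with a batch left out. For the pathway genes these ranges were 8 to 16 between untreated ages and 1 to 8 for the response, the latter 11 with the replicate block. The block changed the call of no other member than Irak1 in young cells. For the ratios, pairing within batches (sign flips of 5 pairs) cannot go below 0.0625, so the differences of 2.41, 2.16, -0.44, 0.24, -0.82 and -0.90 did not pass in it, and the Myd88 to Ticam1 difference between untreated ages, 0.210 to 0.283 with a batch left out, passed only without batch 2. Reversed values were all near 0 and uncalled: Myd88 between untreated ages (-0.0173 to 0.0347 with a batch left out), Tirap with LPS in young cells (0.0101 by DESeq2, 0.0154 with its size factors, 0.0041 with at least 10 counts, -0.0467 to 0.0399 with a batch left out), Irak1 with LPS in aged cells (-0.12 with library sizes alone), Irak4 between ages with LPS (-0.0854 to 0.105) and the response of Ly96 (-0.223 to 0.054). Library sizes alone raised the higher share of called genes from 32.2% to 42.2% between untreated ages and from 64.4% to 81.3% for the response. Over all genes, leaving out batch 2 lowered the calls from 1475 to 548 between untreated ages, from 3717 to 2156 between ages with LPS, and from 818 to 189 for the response; without batch 4 or 5 the first was 989 or 984 and the last 532 or 410. The causes were not tested. At 41 to 127 counts Ly96 has the widest intervals of the members.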
